A study of Mus musculus with 7 samples.

Results

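The genes described here make or import sterols and fatty acids in lung CD11b+ conventional dendritic cells (cDC2s). The cDC2s are a type of lung dendritic cell that carries inhaled antigen to the lymph node. The genes were taken as a list of 34 gene symbols, each read from the brightest probeset that carries that symbol alone. Of these 34 genes, 33 had such a probeset among 19939 genes on the array (Sc4mol under its newer name Msmo1). Acat2 had none, so its expression was not analysed here. The list holds 16 measured enzymes of sterol synthesis, 8 enzymes that make, elongate or desaturate fatty acids, 2 oxysterol enzymes, and the regulators and carriers Insig1, Insig2, Srebf1, Srebf2, Scap, Stard4 and Mylip. Expression is given as the deposited log2 level, on which a difference of 1 is a doubling, and no level is compared between genes because probesets differ in brightness for reasons other than transcript number.

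Cholesterol is built from acetyl-CoA through mevalonate, isoprenoid units and squalene. Its genes are switched on together by SREBP-2 (gene Srebf2), and fatty acid genes mainly by SREBP-1 (gene Srebf1). SCAP escorts these factors out of the endoplasmic reticulum when membrane sterol is low, and the INSIG proteins hold them back when it is high. In myeloid cells, interferons are known to induce Ch25h, whose oxysterol product restrains SREBP processing and is turned by CYP7B1 into a ligand that guides cells through the receptor GPR183.

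Each of 7 arrays held RNA from 1 pool of lung cells of 10 female C57Bl/6 mice, taken 12 hours after dosing. The sort kept cells positive for CD11c, MHC-II and CD11b and negative for Ly6C and CD64. The pools came from Irf3-deficient mice given 100 µg of house dust mite extract (3 pools), from wild type mice given the same dose (2 pools), and from wild type mice given PBS (2 pools). IRF3 is a transcription factor that switches on interferon genes. The labels name the mice Irf3-deficient, and neither the allele nor an age is given in the sources used here. Irf3-deficient mice given PBS were not analysed here, so the genotypes are compared only after mite, and a difference of mite-treated Irf3-deficient cells from PBS-treated wild type holds genotype and mite together.

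Irf3 itself stood at a log2 level of 8.26, 8.13 and 8.30 in the Irf3-deficient pools. In wild type it stood at 9.59 and 9.57 after mite and at 9.48 and 9.56 after PBS, so every library followed its genotype label. The treatment label is not checked by Irf3, which differed by 0.06 between the wild type groups (adjusted p = 0.801). The 8 markers of cDC2s averaged between 12.09 and 12.36 in every array, with means over the 7 arrays from 9.76 for Zbtb46 to 14.23 for H2-Ab1. They were not level between groups: in mite-treated against PBS-treated wild type Itgam, which encodes the sort marker CD11b, fell by 1.06 (adjusted p = 1.94e-05), Cd209a fell by 0.41 (adjusted p = 0.00344) and Zbtb46 rose by 0.38 (adjusted p = 0.0403). In Irf3-deficient against wild type cells after mite, Itgam was higher by 0.72 (adjusted p = 0.000225), Cd209a by 0.46 (adjusted p = 0.000881) and Itgax by 0.31 (adjusted p = 0.0179), and Zbtb46 stood at -0.49 (adjusted p = 0.00539). Within a group, arrays correlated at 0.995 to 0.997 across genes, and at 0.973 to 0.990 between groups. Markers of monocytes and interstitial macrophages, cells outside the sort gate, averaged 9.91 to 10.19 in Irf3-deficient pools, 9.45 to 9.92 in mite-treated wild type and 10.61 to 11.02 in PBS-treated wild type (7 of 8 listed genes measured), and 6 of the 7 passed as lower in mite-treated wild type than in PBS. The other, Fcgr1, which encodes the CD64 that the sort excluded, went the opposite way: it was higher in mite-treated than in PBS-treated wild type by 1.79 (adjusted p = 2.19e-05) and stood at -1.67 in Irf3-deficient from mite-treated wild type (adjusted p = 2.23e-05). Markers of alveolar type 2 epithelium, the lipid-producing cell of the air sac, averaged 9.91 to 9.98, 9.74 to 10.03 and 10.44 to 10.47 in the same order of groups, and 5 of 6 were lower in mite-treated wild type than in PBS. In pooled cells of this kind, fewer cells of a type and less RNA per cell cannot be told apart, and the part that these other cells have in the results below was not tested.

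The promoters of 4 genes are shown because most sterol synthesis genes with a window hold the same short letter pattern in it. RefSeq windows of 300 bases (250 before to 50 after the annotated start, GRCm38.p6, written on the gene's strand) were held for 26 of the 34 genes, and none was held for Fdps, Fdft1, Sqle, Stard4, Scd1, Scd2, Fads1 and Cyp7b1. The windows below were chosen after expression values were seen: Hmgcs1, Idi1 and Hsd17b7 had the largest rises among sterol enzymes with a window, and Fasn is a fatty acid gene that fell. Capitals mark CCAAT or its reverse complement ATTGG, the letters bound by NF-Y, a usual partner of SREBP, and, in Hmgcs1 alone, TCACNCCAC, a sterol regulatory element.
Hmgcs1, chr13:119690101-119690400, plus strand: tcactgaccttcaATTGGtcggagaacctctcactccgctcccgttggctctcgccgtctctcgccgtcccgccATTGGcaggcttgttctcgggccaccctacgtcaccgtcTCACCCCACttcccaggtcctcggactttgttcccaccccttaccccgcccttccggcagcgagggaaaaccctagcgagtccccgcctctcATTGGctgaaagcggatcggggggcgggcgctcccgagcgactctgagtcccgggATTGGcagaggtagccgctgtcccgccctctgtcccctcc
Idi1, chr13:8885356-8885655, plus strand: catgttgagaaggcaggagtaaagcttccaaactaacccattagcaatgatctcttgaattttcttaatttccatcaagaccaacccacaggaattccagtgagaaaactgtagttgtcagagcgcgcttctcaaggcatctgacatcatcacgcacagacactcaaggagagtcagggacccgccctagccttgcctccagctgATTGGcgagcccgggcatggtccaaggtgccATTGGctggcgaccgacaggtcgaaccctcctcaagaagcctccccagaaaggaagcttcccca
Hsd17b7, chr1:169969156-169969455, minus strand: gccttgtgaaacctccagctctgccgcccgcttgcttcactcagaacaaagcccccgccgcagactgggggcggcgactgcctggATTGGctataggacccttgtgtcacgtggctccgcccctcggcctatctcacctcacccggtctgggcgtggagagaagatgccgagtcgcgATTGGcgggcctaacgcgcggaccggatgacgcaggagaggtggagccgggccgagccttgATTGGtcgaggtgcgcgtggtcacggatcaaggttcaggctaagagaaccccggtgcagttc
Fasn, chr11:120824498-120824797, minus strand: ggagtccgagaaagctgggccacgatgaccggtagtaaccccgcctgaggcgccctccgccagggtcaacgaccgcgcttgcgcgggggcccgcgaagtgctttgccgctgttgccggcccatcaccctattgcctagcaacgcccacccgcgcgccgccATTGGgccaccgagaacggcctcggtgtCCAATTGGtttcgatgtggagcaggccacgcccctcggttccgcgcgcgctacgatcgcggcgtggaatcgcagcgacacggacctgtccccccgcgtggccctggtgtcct

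Of the 14 sterol synthesis genes with a window, 13 held CCAAT on either strand, as did 2 of 5 fatty acid and desaturase genes. The exception among the sterol genes was Acat2, whose expression was not measured. Mvd, Nsdhl, Ebp and Dhcr7, which did not rise with mite in wild type, held CCAAT too. So did 4 of 5 genes that control SREBP, and 20 of the 26 members with a window. Of all 27025 RefSeq genes with a window, 41.1% held it. Hmgcs1 held 4 copies, Hsd17b7 3 and Idi1 2, and in Fasn 2 of its 3 copies overlap on opposite strands. The sterol regulatory element TCACNCCAC lay in 1 of 26 members, in Hmgcs1 137 bases before the start, and in 1.44% of all genes. The core of the interferon-stimulated response element (TTTC, any 2 bases, TTTC), searched on both strands too, lay in 1 of the 26, Ebp, and in 3.99% of all genes. These matches describe letters in a short window and say nothing of binding.

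After house dust mite, 12 sterol synthesis enzymes and both oxysterol enzymes rose in wild type cDC2s, and 4 fatty acid and desaturase genes fell. The 95% intervals are not adjusted for the number of genes. The p-values rest on the spread between these pools, which limma moderates by that of other genes (4 residual and 8.34 prior degrees of freedom). A gene is said to have risen or fallen only where limma's adjusted p, taken over all 19939 genes, was under 0.05. By that rule 12 of 16 sterol enzymes rose and 0 fell in mite-treated against PBS-treated wild type, with a median log2 difference of 0.62. Among the 8 fatty acid and desaturase genes 0 rose and 4 fell, with a median of -0.42, and all 8 were lower in each mite-treated array than in either PBS array. Over all genes 8.35% rose, 9.23% fell, the median difference was 0.03, and 24.1% lay lower without overlap. In Irf3-deficient cells given mite, the group mean lay between both wild type means with mite-treated wild type highest for 9 of 16 sterol enzymes, and above both wild type means for 4. Of those 9, Mvk, Pmvk, Fdps and Lss did not pass against PBS-treated wild type, at 0.00, 0.18, 0.37 and 0.33. Against mite-treated wild type, 1 sterol enzyme was higher and 6 were lower (median -0.21), and 5 fatty acid and desaturase genes were higher and 0 lower (median 0.46), where 10.7% of all genes were higher and 9% lower (median 0.00). Against PBS-treated wild type, 8 of 16 sterol enzymes were higher and 1 lower (median 0.41), and of the 8 fatty acid and desaturase genes 0 passed (median -0.09), where 5.89% of all genes were higher and 4.9% lower (median 0.04). Over all 33 measured genes, 14 rose and 5 fell in wild type, where 17.6% of all genes passed in either direction; 8 were higher and 7 lower in Irf3-deficient than in wild type cells after mite, where 19.7% passed; and 10 were higher and 2 lower in Irf3-deficient cells than in PBS-treated wild type, where 10.8% passed. With groups this small, many genes do not overlap between groups. In wild type 18 of the 33 lay higher and 12 lower without overlap, against 28.5% and 24.1% of all genes (52.6% together). Between the treated genotypes 12 lay higher and 12 lower, against 23.2% and 20.5% (43.7% together). In Irf3-deficient against PBS-treated wild type 15 lay higher and 6 lower, against 22% and 17% (39.1% together). The 3 comparisons share arrays, so their values are given side by side and are not independent of each other. Leaving out replicate 2 of mite-treated wild type reduced the falls among fatty acid and desaturase genes to 2, as did leaving out replicate 2 of PBS-treated wild type. The 7 sterol calls between the treated genotypes became 3 without either mite-treated wild type array and 4 without replicate 2 or replicate 3 of the Irf3-deficient pools.

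**Figure D1:**
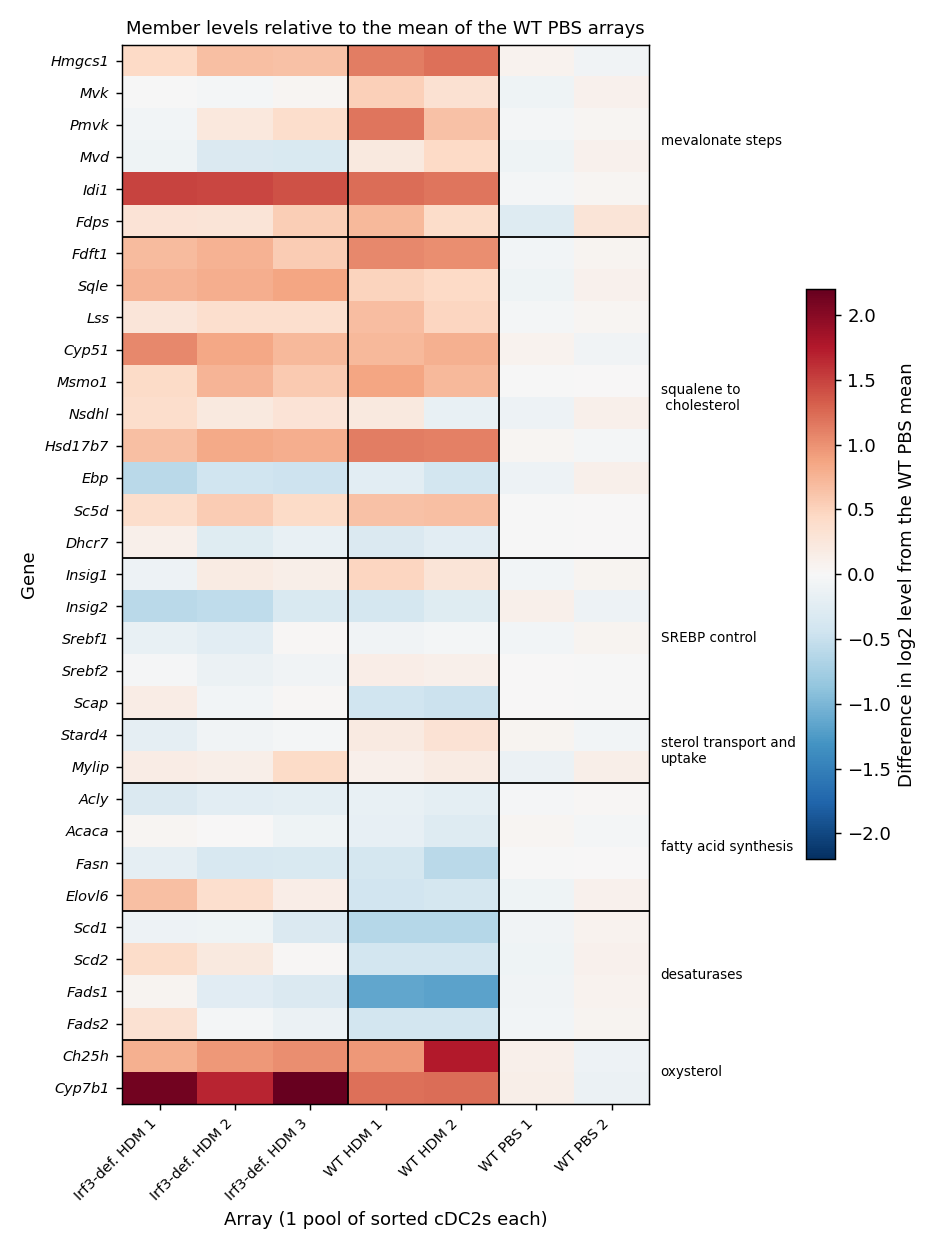
Difference in log2 level of each of the 33 measured genes (rows, in blocks by role) in each of the 7 arrays (columns) from that gene's mean in the 2 PBS-treated wild type arrays; red is higher and blue lower. Hmgcs1, Idi1, Fdft1 and Hsd17b7 are red in all 5 mite-treated arrays, and Fads1 is at its bluest in the 2 mite-treated wild type arrays.

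Of the 6 measured enzymes that turn acetyl-CoA into farnesyl diphosphate, 5 rose with mite in wild type, where 8.35% of all genes rose. Hmgcs1, the synthase that forms HMG-CoA, had log2 levels of 10.93, 11.17 and 11.15 in the Irf3-deficient pools, 11.63 and 11.72 in mite-treated wild type and 10.58 and 10.42 in PBS-treated wild type. The 3 groups did not overlap, and the Irf3-deficient pools lay between the wild type groups. Mite-treated wild type was 2.26-fold higher than PBS-treated wild type (95% CI 1.89 to 2.7, adjusted p = 1.73e-05). Irf3-deficient cells differed by -0.59 ± 0.11 (SE) from mite-treated wild type (adjusted p = 0.00169) and by 0.58 from PBS-treated wild type (adjusted p = 0.00425). Idi1 encodes the isomerase that interconverts the isoprenoid building blocks. It measured 12.63, 12.61 and 12.54 in the Irf3-deficient pools, 12.37 and 12.32 in mite-treated wild type and 11.11 and 11.18 in PBS-treated wild type. Every mite-treated pool was above both PBS pools, and the Irf3-deficient pools were the highest. Idi1 rose 2.29-fold in wild type (95% CI 2.00 to 2.63, adjusted p = 1.53e-06) and was 2.72-fold higher in Irf3-deficient cells than in PBS-treated wild type (95% CI 2.4 to 3.09, adjusted p = 1.1e-06). The difference between treated genotypes was 0.25 (adjusted p = 0.055), which passed under 4 of the other settings tried, among them the mean of the 2 Idi1 probesets at 0.29 (adjusted p = 0.0292).

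Mevalonate is phosphorylated by the kinases encoded by Mvk and Pmvk and decarboxylated by the product of Mvd, and these 3 genes were lower in Irf3-deficient than in wild type cells after mite. Pmvk stood at 8.76, 9.04 and 9.21 in the Irf3-deficient pools, 9.99 and 9.46 in mite-treated wild type and 8.78 and 8.85 in PBS-treated wild type. Its 2 mite-treated wild type pools lay apart by 0.53 but above every other pool. Pmvk rose by 0.91 ± 0.18 (SE) in wild type (adjusted p = 0.00305) and was 1.65-fold lower in Irf3-deficient cells (95% CI 1.3 to 2.11, adjusted p = 0.00652). Mvk measured 9.36, 9.32 and 9.42 in the Irf3-deficient pools, 9.90 and 9.70 in mite-treated wild type and 9.27 and 9.47 in PBS-treated wild type. The Irf3-deficient values fell among the PBS values. Mvk rose by 0.43 in wild type (adjusted p = 0.0295) and stood at a log2 difference of -0.43 in Irf3-deficient from treated wild type (adjusted p = 0.0163). Mvd measured 9.19, 8.96 and 8.95 in the Irf3-deficient pools, 9.50 and 9.72 in mite-treated wild type and 9.18 and 9.38 in PBS-treated wild type. The mite-treated wild type pools were the highest, and the Irf3-deficient and PBS pools overlapped. Irf3-deficient cells stood at -0.58 from treated wild type (adjusted p = 0.00513), while the Mvd difference of 0.33 in wild type did not pass (adjusted p = 0.126). Fdps, which joins isoprenoid units into farnesyl diphosphate, measured 10.99, 10.98 and 11.23 in the Irf3-deficient pools, 11.41 and 11.10 in mite-treated wild type and 10.41 and 10.98 in PBS-treated wild type. The PBS pools differed from each other by 0.57, beside a rise of 0.57 in wild type (adjusted p = 0.04). That call was lost after quantile normalisation (0.52, adjusted p = 0.0995), and with only the 2 groups fitted those of Fdps and Mvk were lost (adjusted p = 0.0509 and 0.0582). Without replicate 1 of PBS-treated wild type the differences were 0.28 for Fdps (adjusted p = 0.374) and 0.33 for Mvk (adjusted p = 0.196), and without replicate 1 of mite-treated wild type they were 0.41 (adjusted p = 0.216) and 0.33 (adjusted p = 0.184). Their adjusted p was 0.0572 and 0.0521 without Irf3-deficient replicate 2. Without replicate 2 of PBS-treated wild type, Fdps was higher in Irf3-deficient cells than in PBS-treated wild type by 0.66 (adjusted p = 0.0334), against 0.37 with it (adjusted p = 0.177). Between the treated genotypes, leaving out replicate 1 of mite-treated wild type gave -0.46 for Pmvk (adjusted p = 0.0875) and -0.33 for Mvk (adjusted p = 0.151), leaving out replicate 2 gave -0.46 for Mvd (adjusted p = 0.0685), and leaving out Irf3-deficient replicate 2 gave -0.41 for Mvk (adjusted p = 0.0637).

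**Figure D2:**
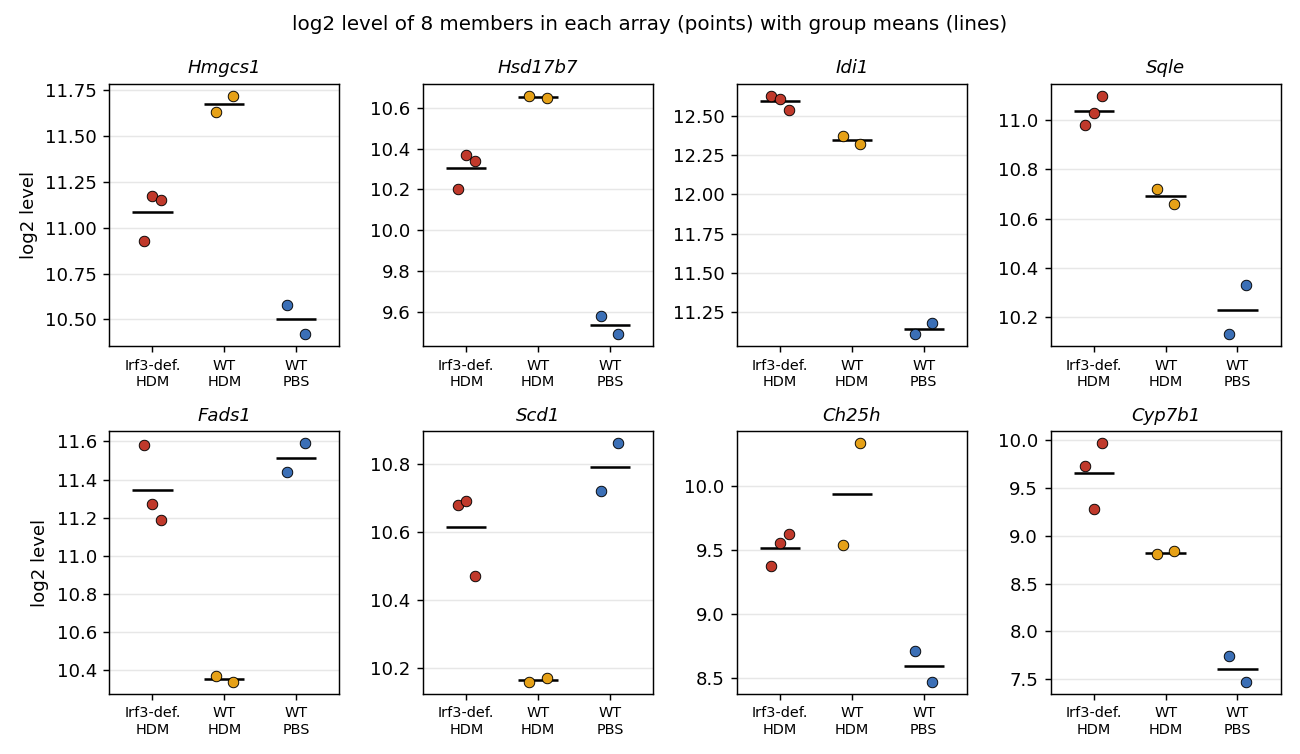
log2 level of 8 genes in each array (points) with the group mean (line), for mite-treated Irf3-deficient, mite-treated wild type and PBS-treated wild type pools; each panel has its own vertical range. Hmgcs1 and Hsd17b7 are highest in mite-treated wild type, Idi1, Sqle and Cyp7b1 in mite-treated Irf3-deficient cells, and Fads1 and Scd1 are lowest in mite-treated wild type.

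From squalene to cholesterol, 7 of 10 enzymes rose with mite in wild type and 6 were higher in Irf3-deficient cells given mite than in PBS-treated wild type. Over all genes, 8.35% rose and 5.89% were higher in these comparisons, in that order. Fdft1, squalene synthase, commits farnesyl diphosphate to sterols and measured 11.36, 11.43 and 11.22 in the Irf3-deficient pools, 11.71 and 11.68 in mite-treated wild type and 10.60 and 10.72 in PBS-treated wild type. The groups did not overlap, with mite-treated wild type the highest. It rose 2.05-fold in wild type (95% CI 1.74 to 2.42, adjusted p = 2.41e-05), was higher by 0.68 in Irf3-deficient cells than in PBS (adjusted p = 0.00102), and stood at -0.36 from mite-treated wild type (adjusted p = 0.0219). Hsd17b7, a reductase that works in the demethylation of sterols, followed the same order at 10.20, 10.37 and 10.34 in the Irf3-deficient pools, 10.66 and 10.65 in mite-treated wild type and 9.58 and 9.49 in PBS-treated wild type. Its rise in wild type was 2.17-fold (95% CI 1.84 to 2.58, adjusted p = 1.8e-05), and Irf3-deficient cells lay 0.77 above PBS (adjusted p = 0.000574) and at -0.35 from mite-treated wild type (adjusted p = 0.0282). Sqle, the squalene epoxidase at a rate-limiting step, ran the other way between the genotypes, at 10.98, 11.03 and 11.10 in the Irf3-deficient pools, 10.72 and 10.66 in mite-treated wild type and 10.13 and 10.33 in PBS-treated wild type. Irf3-deficient pools were the highest and PBS pools the lowest, without overlap. Sqle rose by 0.45 ± 0.11 (SE) in wild type (adjusted p = 0.0133), was higher in Irf3-deficient than in wild type cells after mite by 0.35 (adjusted p = 0.029), and lay 1.75-fold above PBS in Irf3-deficient cells (95% CI 1.5 to 2.04, adjusted p = 0.000416).

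Cyp51, the lanosterol demethylase, measured 11.01, 10.79 and 10.65 in the Irf3-deficient pools, 10.66 and 10.72 in mite-treated wild type and 10.03 and 9.86 in PBS-treated wild type. Both treated groups were above PBS and overlapped each other. It rose by 0.74 in wild type (adjusted p = 0.00157) and was 0.87 above PBS in Irf3-deficient cells (adjusted p = 0.00069), with a difference of 0.13 between the treated genotypes (95% CI -0.13 to 0.39). Msmo1, which oxidises methyl groups of the sterol ring, measured 10.88, 11.20 and 11.03 in the Irf3-deficient pools, 11.33 and 11.17 in mite-treated wild type and 10.45 and 10.47 in PBS-treated wild type. Again both treated groups were above PBS and overlapped. Msmo1 rose by 0.79 in wild type (adjusted p = 0.000643) and was 0.58 higher in Irf3-deficient cells than in PBS-treated wild type (adjusted p = 0.00601). Sc5d, the desaturase near the end of the pathway, measured 10.25, 10.42 and 10.29 in the Irf3-deficient pools, 10.51 and 10.53 in mite-treated wild type and 9.85 and 9.88 in PBS-treated wild type. Mite-treated wild type was highest and PBS lowest, without overlap. Sc5d rose by 0.66 in wild type (adjusted p = 0.00104) and was 0.46 above PBS in Irf3-deficient cells (adjusted p = 0.0119). Lss, which folds squalene epoxide into lanosterol, measured 8.96, 9.06 and 9.06 in the Irf3-deficient pools, 9.37 and 9.16 in mite-treated wild type and 8.64 and 8.74 in PBS-treated wild type, in the same order. It rose by 0.57 in wild type (adjusted p = 0.00456) and stood 0.33 above PBS in Irf3-deficient cells without passing (adjusted p = 0.0726), though it passed after quantile normalisation (0.36, adjusted p = 0.0465).

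The other 3 enzymes of this stretch did not rise. Ebp, a sterol isomerase, measured 9.39, 9.54 and 9.52 in the Irf3-deficient pools, 9.74 and 9.57 in mite-treated wild type and 9.86 and 10.10 in PBS-treated wild type. PBS pools were the highest and Irf3-deficient pools the lowest, without overlap. Ebp was lower in Irf3-deficient cells than in PBS by a log2 difference of -0.49 (adjusted p = 0.0167); the wild type difference of -0.32 did not pass (adjusted p = 0.108). Dhcr7, the reductase of the final step, averaged 9.39 ± 0.19 in the Irf3-deficient pools (SD, n = 3), 9.21 ± 0.07 in mite-treated wild type (n = 2) and 9.50 ± 0.03 in PBS-treated wild type (n = 2), and its wild type difference was -0.28 (95% CI -0.57 to 0.01, adjusted p = 0.196). Nsdhl, a dehydrogenase of sterol demethylation, averaged 10.58 ± 0.09 in the Irf3-deficient pools (SD, n = 3), 10.30 ± 0.27 in mite-treated wild type (n = 2) and 10.28 ± 0.17 in PBS-treated wild type (n = 2), with a wild type difference of 0.02 (95% CI -0.29 to 0.33). Between the treated genotypes, the calls of Fdft1, Sqle and Hsd17b7 were each lost without either mite-treated wild type replicate (adjusted p 0.0755 to 0.149), with differences of -0.35 and -0.37 for Fdft1, 0.38 and 0.32 for Sqle, and -0.35 and -0.36 for Hsd17b7 without replicates 1 and 2. Without Irf3-deficient replicate 3 they were -0.30, 0.32 and -0.37 (adjusted p = 0.0915, 0.101 and 0.0582), without its replicate 2 Sqle and Hsd17b7 were 0.35 and -0.39 (adjusted p = 0.0836 and 0.0549), and without its replicate 1 Hsd17b7 was -0.30 (adjusted p = 0.0744). Nsdhl passed at 0.47 without replicate 1 of mite-treated wild type (adjusted p = 0.0393), against 0.28 with it. The wild type rise of Sqle did not pass without replicate 1 of mite-treated wild type (0.43, adjusted p = 0.0593) or of PBS (0.35, adjusted p = 0.12). Against PBS, the calls in Irf3-deficient cells were lost for Msmo1 without PBS replicate 1 (0.57, adjusted p = 0.0662), for Ebp without PBS replicate 2 (-0.37, adjusted p = 0.139), and for Sc5d without PBS replicate 1 (0.44, adjusted p = 0.0983), PBS replicate 2 (0.47, adjusted p = 0.0535) or Irf3-deficient replicate 2 (0.41, adjusted p = 0.0621).

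Of the 5 genes that control SREBP, 0 rose and 1 fell in wild type, where 8.35% of all genes rose and 9.23% fell. Scap measured 11.01, 10.78 and 10.87 in the Irf3-deficient pools, 10.40 and 10.37 in mite-treated wild type and 10.85 and 10.84 in PBS-treated wild type. Mite-treated wild type lay below both other groups, which overlapped. Scap fell by 0.46 in wild type (adjusted p = 0.0116) and was higher by 0.51 in Irf3-deficient than in wild type cells after mite (adjusted p = 0.00336). Insig2, an anchor that retains SCAP, measured 9.19, 9.22 and 9.45 in the Irf3-deficient pools, 9.39 and 9.52 in mite-treated wild type and 9.90 and 9.67 in PBS-treated wild type. The PBS pools were the highest, and the other groups overlapped. Insig2 was lower in Irf3-deficient cells than in PBS-treated wild type, at -0.50 (adjusted p = 0.0195), and its wild type difference of -0.33 did not pass (adjusted p = 0.117). Insig1, a retention factor that SREBP itself induces, averaged 11.16 ± 0.15 in the Irf3-deficient pools (SD, n = 3), 11.47 ± 0.14 in mite-treated wild type (n = 2) and 11.09 ± 0.09 in PBS-treated wild type (n = 2). Its wild type difference of 0.38 missed the threshold (adjusted p = 0.0564) and passed without Irf3-deficient replicate 1 (0.38, adjusted p = 0.025). Srebf2 averaged 11.90 ± 0.05 in the Irf3-deficient pools (SD, n = 3), 12.10 ± 0.03 in mite-treated wild type (n = 2) and 11.97 ± 0.02 in PBS-treated wild type (n = 2), and its wild type difference was 0.12 (95% CI -0.08 to 0.32, adjusted p = 0.448). Srebf1 averaged 9.26 ± 0.13 in the Irf3-deficient pools (SD, n = 3), 9.33 ± 0.02 in mite-treated wild type (n = 2) and 9.39 ± 0.08 in PBS-treated wild type (n = 2), with a wild type difference of -0.06 (95% CI -0.33 to 0.20, adjusted p = 0.803). SREBP activity is set by cleavage of the protein, which these arrays do not measure. The fall of Scap did not pass without replicate 2 of mite-treated wild type (-0.45, adjusted p = 0.0586) or without either PBS replicate (-0.46 and -0.47, adjusted p = 0.0624 and 0.0563). The call of Insig2 was lost without PBS replicate 1 (-0.38, adjusted p = 0.211) or Irf3-deficient replicate 2 (-0.47, adjusted p = 0.0773).

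Neither gene of sterol transport and uptake passed in wild type. Stard4, a soluble sterol carrier and a known SREBP target, measured 8.89, 9.01 and 9.05 in the Irf3-deficient pools, 9.29 and 9.41 in mite-treated wild type and 9.16 and 9.03 in PBS-treated wild type. It was lower in Irf3-deficient than in mite-treated wild type cells, without overlap, with a difference of -0.37 (adjusted p = 0.0295). That call was lost without either mite-treated wild type replicate (-0.42 and -0.31, adjusted p = 0.0587 and 0.204) or without Irf3-deficient replicate 1 or 2 (-0.32 and -0.38, adjusted p = 0.0826 and 0.075). Mylip, a ubiquitin ligase that removes lipoprotein receptors from the cell surface, averaged 9.97 ± 0.15 in the Irf3-deficient pools (SD, n = 3), 9.87 ± 0.06 in mite-treated wild type (n = 2) and 9.73 ± 0.18 in PBS-treated wild type (n = 2), and its wild type difference was 0.14 (95% CI -0.15 to 0.43).

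**Figure D3:**
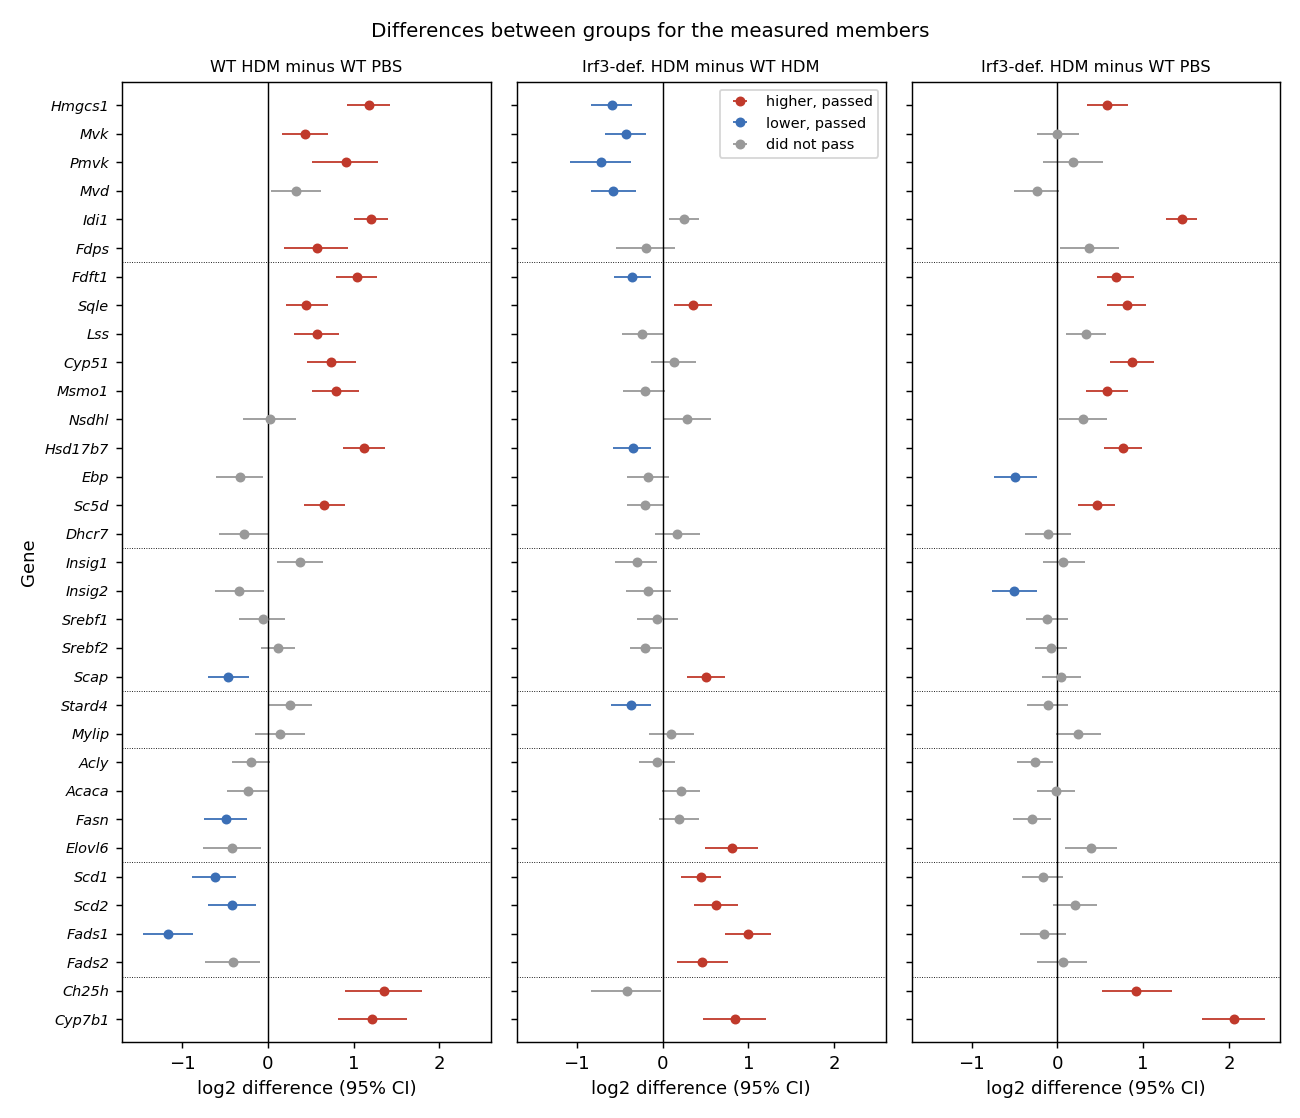
log2 differences (points) with 95% confidence intervals (bars) of the 33 measured genes in 3 comparisons; red and blue passed as higher and lower at an adjusted p under 0.05, and grey did not pass. Fads1 is at -1.16 in mite-treated against PBS-treated wild type, at 1.00 in mite-treated Irf3-deficient against wild type, and at -0.16 in mite-treated Irf3-deficient against PBS-treated wild type.

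Of the 4 desaturases, which put double bonds into fatty acids, 3 fell with mite in wild type, and 0 passed in Irf3-deficient cells against PBS-treated wild type. All 4 were higher in Irf3-deficient than in wild type cells after mite. Over all genes, 9.23% fell, 10.8% passed and 10.7% were higher in these comparisons, in that order. Fads1, which makes polyunsaturated fatty acids such as arachidonic acid, measured 11.58, 11.27 and 11.19 in the Irf3-deficient pools, 10.37 and 10.34 in mite-treated wild type and 11.44 and 11.59 in PBS-treated wild type. The mite-treated wild type pools lay apart from all others, and the Irf3-deficient pools overlapped PBS. Fads1 was 2.23-fold lower in mite-treated than in PBS-treated wild type (95% CI 1.83 to 2.73, adjusted p = 5.06e-05) and 1.99-fold higher in Irf3-deficient than in wild type cells after mite (95% CI 1.66 to 2.39, adjusted p = 9.14e-05), and Irf3-deficient cells differed from PBS by -0.16 (95% CI -0.43 to 0.10). Scd1, a stearoyl-CoA desaturase that makes monounsaturated fatty acids, measured 10.68, 10.69 and 10.47 in the Irf3-deficient pools, 10.16 and 10.17 in mite-treated wild type and 10.72 and 10.86 in PBS-treated wild type. The wild type mite pools were again the lowest. Scd1 fell by 0.62 in wild type (adjusted p = 0.00245) and was higher by 0.45 in Irf3-deficient cells after mite (adjusted p = 0.00989). Its paralogue Scd2 measured 11.43, 11.24 and 11.05 in the Irf3-deficient pools, 10.62 and 10.62 in mite-treated wild type and 10.94 and 11.12 in PBS-treated wild type, and the levels of the paralogues are uncertain to the extent that probes match both. Scd2 fell by 0.42 in wild type (adjusted p = 0.0427) and was higher by 0.62 in Irf3-deficient cells after mite (adjusted p = 0.00231). Fads2, which acts before FADS1 in the same pathway, measured 10.62, 10.24 and 10.15 in the Irf3-deficient pools, 9.87 and 9.88 in mite-treated wild type and 10.22 and 10.34 in PBS-treated wild type. It was higher by 0.46 in Irf3-deficient cells after mite (adjusted p = 0.0273), and its wild type difference of -0.41 did not pass (adjusted p = 0.0798).

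The fall of Scd2 did not pass without any 1 of the 4 wild type arrays (-0.51 to -0.33, adjusted p from 0.067 to 0.219), nor without Irf3-deficient replicate 2 (adjusted p = 0.0717). It passed neither after median centring of the arrays (-0.40, adjusted p = 0.0718) nor with array weights (adjusted p = 0.0542). The Fads2 difference between treated genotypes was lost without Irf3-deficient replicate 1 (0.32, adjusted p = 0.062) and without either mite-treated wild type replicate (0.46 and 0.47, adjusted p = 0.0942 and 0.1), and after median centring (0.44, adjusted p = 0.0517). Its wild type difference of -0.41 passed without Irf3-deficient replicate 1 (adjusted p = 0.0182) and with only the 2 groups fitted (adjusted p = 0.0455). Of the 6 markers of alveolar type 2 epithelium, cells that also express Scd1, 5 were lower than PBS in Irf3-deficient cells and 5 in mite-treated wild type. Between the treated genotypes Sftpc and Lamp3 were lower in Irf3-deficient cells, at -0.53 (adjusted p = 0.00104) and -0.61 (adjusted p = 0.0333). Epcam was higher by 1.78 (adjusted p = 8.6e-07), the direction of the desaturases, and the other 3 did not pass. Epcam was also higher in Irf3-deficient cells than in PBS-treated wild type, by 0.84 (adjusted p = 0.00115), where the other 5 were lower. Whether Epcam and Lamp3 RNA came from epithelium or from the sorted cells themselves was not tested. Itgam and Cd209a, given above, were lower after mite in wild type and higher in Irf3-deficient than in wild type cells, as were Fads1, Scd1 and Scd2. Of the other cDC2 markers, Zbtb46 passed the opposite way in both comparisons, at 0.38 and -0.49. Itgax passed only between the treated genotypes, and H2-Ab1, Sirpa, Irf4 and Flt3 passed in neither. The part of these markers in the desaturase values was not tested.

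Of the 4 genes of fatty acid synthesis, 1 fell with mite in wild type, where 9.23% of all genes fell. Fasn, the synthase that builds palmitate, measured 10.59, 10.43 and 10.45 in the Irf3-deficient pools, 10.40 and 10.20 in mite-treated wild type and 10.77 and 10.80 in PBS-treated wild type. Both treated groups lay below PBS. Fasn fell by 0.49 in wild type (adjusted p = 0.0102), and its difference of -0.30 in Irf3-deficient cells against PBS did not pass (adjusted p = 0.0998). Elovl6, which elongates palmitate, measured 10.43, 10.14 and 9.91 in the Irf3-deficient pools, 9.34 and 9.37 in mite-treated wild type and 9.67 and 9.86 in PBS-treated wild type. Mite-treated wild type was the lowest and the Irf3-deficient pools the highest, without overlap. Elovl6 was 1.75-fold higher in Irf3-deficient than in wild type cells after mite (95% CI 1.42 to 2.16, adjusted p = 0.00124), and its wild type difference was -0.42 (adjusted p = 0.0883). Acly, which supplies cytosolic acetyl-CoA to sterol and fatty acid synthesis alike, averaged 10.72 ± 0.06 in the Irf3-deficient pools (SD, n = 3), 10.78 ± 0.04 in mite-treated wild type (n = 2) and 10.98 ± 0.03 in PBS-treated wild type (n = 2), with a wild type difference of -0.19 (95% CI -0.42 to 0.03). Acaca, the carboxylase that commits acetyl-CoA to fatty acids, averaged 9.97 ± 0.07 in the Irf3-deficient pools (SD, n = 3), 9.76 ± 0.07 in mite-treated wild type (n = 2) and 10.00 ± 0.06 in PBS-treated wild type (n = 2), with a wild type difference of -0.23 (95% CI -0.48 to 0.01). The fall of Fasn did not pass without replicate 2 of mite-treated wild type (-0.39, adjusted p = 0.0933) or of PBS (-0.47, adjusted p = 0.0606). Elovl6 passed in wild type without Irf3-deficient replicate 1 (-0.42, adjusted p = 0.0323) and against PBS in Irf3-deficient cells without their replicate 3 (0.52, adjusted p = 0.0424).

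Both oxysterol enzymes rose with mite in wild type and were above PBS in Irf3-deficient cells, and between the treated genotypes Cyp7b1 passed and Ch25h did not. Cyp7b1, the hydroxylase that makes the GPR183 ligand from the CH25H product and also clears oxysterols, measured 9.73, 9.28 and 9.97 in the Irf3-deficient pools, 8.81 and 8.84 in mite-treated wild type and 7.74 and 7.47 in PBS-treated wild type. The groups did not overlap, and the Irf3-deficient pools were the highest. It rose 2.33-fold in wild type (95% CI 1.76 to 3.07, adjusted p = 0.000533), stood 4.16-fold above PBS in Irf3-deficient cells (95% CI 3.22 to 5.36, adjusted p = 1.93e-05), and was higher in Irf3-deficient than in wild type cells after mite by 0.84 ± 0.17 (SE, adjusted p = 0.00346). Ch25h, the cholesterol hydroxylase, measured 9.37, 9.55 and 9.62 in the Irf3-deficient pools, 9.54 and 10.33 in mite-treated wild type and 8.71 and 8.47 in PBS-treated wild type. The 2 mite-treated wild type pools lay 0.80 apart, and the lower of them fell within the Irf3-deficient range. Ch25h rose 2.55-fold in wild type (95% CI 1.87 to 3.47, adjusted p = 0.000546) and was 0.92 above PBS in Irf3-deficient cells (adjusted p = 0.00774). Its difference of -0.42 between the treated genotypes (95% CI -0.83 to -0.02, adjusted p = 0.154) depended on which wild type pool was used: without replicate 1 of mite-treated wild type it was -0.82 (adjusted p = 0.00248), and without replicate 2 it was -0.03. Without PBS replicate 2 the difference of Irf3-deficient cells from PBS-treated wild type was 0.80 (adjusted p = 0.0823). Interferon response genes, measured on the same arrays with 6 markers, averaged 9.89 to 10.41 in Irf3-deficient pools, 12.76 to 12.84 in mite-treated wild type and 8.86 to 8.88 in PBS-treated wild type, while Cyp7b1 was highest in the Irf3-deficient pools.

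Other genes of lipid supply were read from a list of 56 genes, of which 49 were measured. In wild type 9 rose and 16 fell with mite, at a median difference of -0.05, where 8.35% of all genes rose and 9.23% fell. Of 13 genes of sterol uptake, storage, transport and efflux, 4 rose and 7 fell. Lrp1, an endocytic receptor for lipoproteins that carry apolipoprotein E, fell by 1.03 ± 0.09 (SE) in wild type (adjusted p = 6.17e-06). The cholesterol exporter gene Abca1 fell by 1.34 (adjusted p = 0.00059) and Apoe, itself among the macrophage markers, fell by 2.03 (adjusted p = 1.39e-05). Npc2, which moves cholesterol out of lysosomes, rose by 0.77 (adjusted p = 0.000279), and the lipid transfer gene Osbpl8 by 0.66 (adjusted p = 0.00138). Among carriers of fatty acids and their precursors, the fatty acid translocase Cd36 fell by 0.76 (adjusted p = 0.000566), while the fatty acid binding protein gene Fabp5 rose by 1.23 (adjusted p = 0.000648) and the mitochondrial citrate carrier Slc25a1, which feeds acetyl-CoA synthesis, by 0.83 (adjusted p = 0.00017).

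Between the treated genotypes, 16 of these 49 genes were higher and 9 lower in Irf3-deficient cells, with a median of 0.11, where 10.7% of all genes were higher and 9% lower. Cd36 was higher by 1.16 (adjusted p = 9.52e-06), Lrp1 by 0.82 (adjusted p = 2.42e-05) and Npc1, the lysosomal partner of NPC2, by 0.65 (adjusted p = 0.000245). Nceh1, which hydrolyses stored cholesterol esters, was higher by 1.10 (adjusted p = 5.72e-05). Npc2 differed by -0.81 (adjusted p = 9.95e-05) and Stard3, an endosomal sterol carrier, by -0.93 (adjusted p = 9.08e-05). Aacs, which activates acetoacetate for sterol and fatty acid synthesis, differed by -0.68 (adjusted p = 0.000444) and Slc25a1 by -0.59 (adjusted p = 0.00107). Against PBS-treated wild type, 7 of the 49 were higher and 4 lower in Irf3-deficient cells, with a median of 0.06, where 5.89% of all genes were higher and 4.9% lower. Osbpl8 was higher by 0.97 (adjusted p = 0.000129), Fabp4 by 1.43 (adjusted p = 0.000773), Hsd17b12, which works in fatty acid elongation, by 0.61 (adjusted p = 0.00244), and Nr1h3, the oxysterol-sensing nuclear receptor LXR alpha, by 0.69 (adjusted p = 0.0134). Apoe differed by -3.03 (adjusted p = 1.41e-06), the sterol hydroxylase gene Cyp27a1 by -0.68 (adjusted p = 0.0136), the triglyceride synthesis gene Dgat2 by -0.54 (adjusted p = 0.0104) and the elongase gene Elovl5 by -0.32 (adjusted p = 0.0339). These 11 calls against PBS numbered 5 and 6 without replicate 1 and replicate 2 of PBS-treated wild type and 7 without Irf3-deficient replicate 3. Of the other 6 macrophage markers, with Apoe set aside, Adgre1, Mertk, Cd14, C5ar1 and Cd163 were lower after mite in wild type. These markers were higher in Irf3-deficient than in wild type cells after mite. Abca1 and Lrp1 moved likewise in both comparisons, and Abca1 was higher by 1.10 between the treated genotypes (adjusted p = 0.00117). Fcgr1 went the opposite way in both comparisons. The part of macrophage RNA in these values was not tested. Alveolar macrophage markers, among them Fabp4, averaged 9.28 to 9.49 in Irf3-deficient pools, 9.13 to 9.27 in mite-treated wild type and 8.94 to 8.98 in PBS-treated wild type, and 2 of the 5 measured were higher than PBS in Irf3-deficient cells. Those 2 were Fabp4 itself and Car4, at 0.91 (adjusted p = 0.0024). Marco at 0.37, Siglecf at -0.23 and Chil3 at -0.38 did not pass, so the average does not stand apart from Fabp4.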

How the data were processed

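The deposited values are log2 expression levels of 35556 probesets, from 7 arrays of the Affymetrix Mouse Gene 1.0 ST design. Per the submitters' processing notes, the tools were R 3.2.1, oligo and RMA, given without role or order. RMA equalises distributions between arrays, so a shift of most transcripts could not be seen. No detection call, batch or build is given in the sources used here, and the number of arrays limits the precision. Replicates are separate pools per the labels.

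Platform annotation gave 21789 probesets 1 symbol, 1621 several and 12146 none; symbols were updated through a RefSeq table (GRCm38.p6) that matched 19856 of 19939 genes. The brightest probeset of a gene was kept. One mean per group was fitted in limma 3.58.1 (R 4.3.3; lmFit, eBayes with intensity trend, two-sided, Benjamini-Hochberg over all genes), and the fit was tested on simulated data. Every member is named, with values by array where it passed in a comparison, and up to 4 genes per direction and comparison from the other list. Members and lists were chosen with earlier results of these data known. Alternatives were the trend, robust moderation, scaling, a filter, probesets, 2-group fits, array weights, a replicate block and each array left out.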

Additional observations from a re-analysis of the deposited data

How the results depend on the processing

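Results were recomputed under 9 other settings, with each of 7 arrays left out, and under 1 setting added after the data were seen. Of 46 calls of members in the 3 comparisons, 27 passed under every one of these. Of 1734 recomputed values of the members and Irf3, 64 no longer passed, 17 newly passed, and 0 of those that had passed changed sign. Values that had not passed could change sign: the wild type difference of Nsdhl ranged from -0.17 to 0.21.

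Leaving out an array gave 9 to 15 member calls between the treated genotypes (15 with all arrays), 3 to 7 calls among their sterol enzymes (7), 2 to 6 among fatty acid and desaturase genes in mite-treated against PBS-treated wild type (4), and 0 to 1 in Irf3-deficient against PBS-treated wild type (0). For other lipid genes in the last comparison it gave 5 to 13 calls (11). Over all genes it gave 2333 to 3725 calls in wild type (3505), 2562 to 3906 between the treated genotypes (3933) and 749 to 2359 in Irf3-deficient against PBS-treated wild type (2153). Quantile normalisation added 1 call, Fasn, among fatty acid and desaturase genes in that last comparison.

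The labels do not say what the replicate numbers mark, so the numbers were not taken to pair pools. Deviations of same-numbered pools from their group means correlated at -0.233 to 0.178. In a group of 2 arrays these deviations mirror each other, so the correlations cannot show whether pools pair. With the replicate number as a replicate block, 4 sterol enzymes passed between the treated genotypes, and 1426 genes in Irf3-deficient against PBS-treated wild type. A block with the numbers of mite-treated wild type alone crossed was chosen after seeing the correlation of -0.233. It gave 4 such sterol calls and 1 fatty acid or desaturase call in Irf3-deficient against PBS-treated wild type.

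Precision is limited by groups of 2 and 3 pools, and signal over background was not measured, since the values hold no detection call. The cause of the changes in calls was not tested.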

Other observations

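Of the members, 3 had a pair of probesets each. In mite-treated against PBS-treated wild type, the probesets of Fdft1 differed by 1.04 and 1.16 on the log2 scale and those of Idi1 by 1.20 and 1.16. Those of Acaca gave -0.23 and -0.04.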
